A study of Mus musculus with 12 samples.

Results

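The genes that build the desmosome were followed through the stomachs of Car9-/- and wild-type mice: the desmogleins Dsg1a, Dsg2 and Dsg3, the desmocollins Dsc2 and Dsc3, desmoplakin (Dsp) and the plakophilins Pkp1, Pkp2, Pkp3 and Pkp4. They were taken by gene symbol, as 10 of the 19406 genes that the annotation of the array names, and every probe of each was kept, 19 probes in all. A further Pkp4 probe, 106940451, has no symbol in that annotation and is called Pkp4 only in the gene list of the study. It was added on that name, giving 20 of 46643 probes. That list holds genes the study found to differ between the genotypes on these same arrays. The difference at this probe is therefore not independent of how the probe was chosen. The animals were C57BL/6 mice, 6 Car9-/- and 6 wild-type with 3 males and 3 females of each genotype, aged 10 to 12 months for Car9-/- and 8 to 12 months for wild-type, and each mouse had 1 Illumina Mouse-6 array. The Car9-/- mice carried a targeted disruption of Car9 in every tissue, which removes carbonic anhydrase IX, and the wild-type mice were the controls. The comparison asks how loss of this enzyme changed the stomach transcriptome. Tissue was taken from the body of the stomach as a piece of whole wall, so in these RNA samples fewer cells of a type and less RNA per cell cannot be told apart.

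Desmosomes are spot-like junctions that rivet neighbouring epithelial cells together. Desmogleins and desmocollins are the cadherins that reach across the gap between the cells, plakoglobin and the plakophilins bind their tails under the membrane, and desmoplakin ties this plaque to the keratin filaments. Simple epithelia, such as the glandular lining of the stomach, are known to use mainly Dsg2, Dsc2, Pkp2 and Pkp3, whereas Dsg1, Dsg3, Dsc3 and Pkp1 belong to stratified squamous epithelium, which in the mouse lines the forestomach.

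Signals below are log2 of the quantile-normalized bead signal, and a difference is the Car9-/- mean minus the wild-type mean on that scale. The Car9 probe 2340128 averaged 7.96 ± 0.15 in Car9-/- stomachs and 9.63 ± 0.13 in wild-type stomachs (SD, n = 6 each), a difference of -1.67 (adjusted p = 3.83e-07, limma), with no overlap. Arrays correlated between 0.96 and 0.993. The arrays of wild-type mice 4, 5 and 6 had median raw signals of 75.6 to 76.9, against 83.3 to 101.4 on the Car9-/- arrays and 87.9 to 89.6 on those of wild-type mice 1 to 3. The same 3 wild-type mice were low in stratified squamous genes, and wild-type mice 4 and 6 were high in genes of exocrine pancreas. The exocrine pancreas level, the mean of 9 centred genes, lay between -1.85 and -0.74 in Car9-/- mice and between -0.53 and 3.93 in wild-type mice, with 3 of the 9 genes lower in Car9-/- stomachs, 0 higher and 7 detected on every array. That level therefore separates the genotypes as the label does, and its part in the results below was not tested beyond the fits that carry it as a covariate. Nothing in the labels says which mice shared a litter or a cage.

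Of the 20 probes, 15 were detected on at least 3 arrays at a detection p under 0.01 and were tested, covering 7 genes. Dsc2, the desmocollin of most epithelia, was not detected on any array, with signals of 5.91 to 6.12 in Car9-/- mice and 5.75 to 6.07 in wild-type mice. Dsc3 and Dsp were each detected in 1 Car9-/- mouse and 1 wild-type mouse. All 3 had a single probe, so these genes had no usable measurement rather than a measured absence. The other untested probes were Dsg1a probe 6370131, detected nowhere, and Dsg2 probe 360528, detected in 2 Car9-/- mice and 0 wild-type mice.

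At 4 of the 15 tested probes the signal was higher in Car9-/- stomachs at an adjusted p under 0.05, and at 0 it was lower. Over all 20751 probes tested, 5.34% were called higher and 5.25% lower. The 4 probes belonged to 3 genes: both probes of Pkp2, 1 of 3 tested probes of Dsg2, and the Pkp4 probe of the study list. That Pkp4 probe came from a list of genes differing on these arrays, so its call adds no support. Of the 14 tested probes that the annotation names, the called ones were the 2 of Pkp2 and 1 of Dsg2. Every Car9-/- mouse was above every wild-type mouse at 2 member probes, 1 of them that Pkp4 probe, a pattern that 2.27% of all probes showed. The median difference was 0.087 over the 15 probes and -0.001 over all probes, and 11 of the 15 were above 0. That median and that count include the Pkp4 probe of the study list and several probes of the same genes. The share of all probes above 0 was not counted. The plot of all tested probes by mouse shows these groups side by side.

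**Figure D1:**
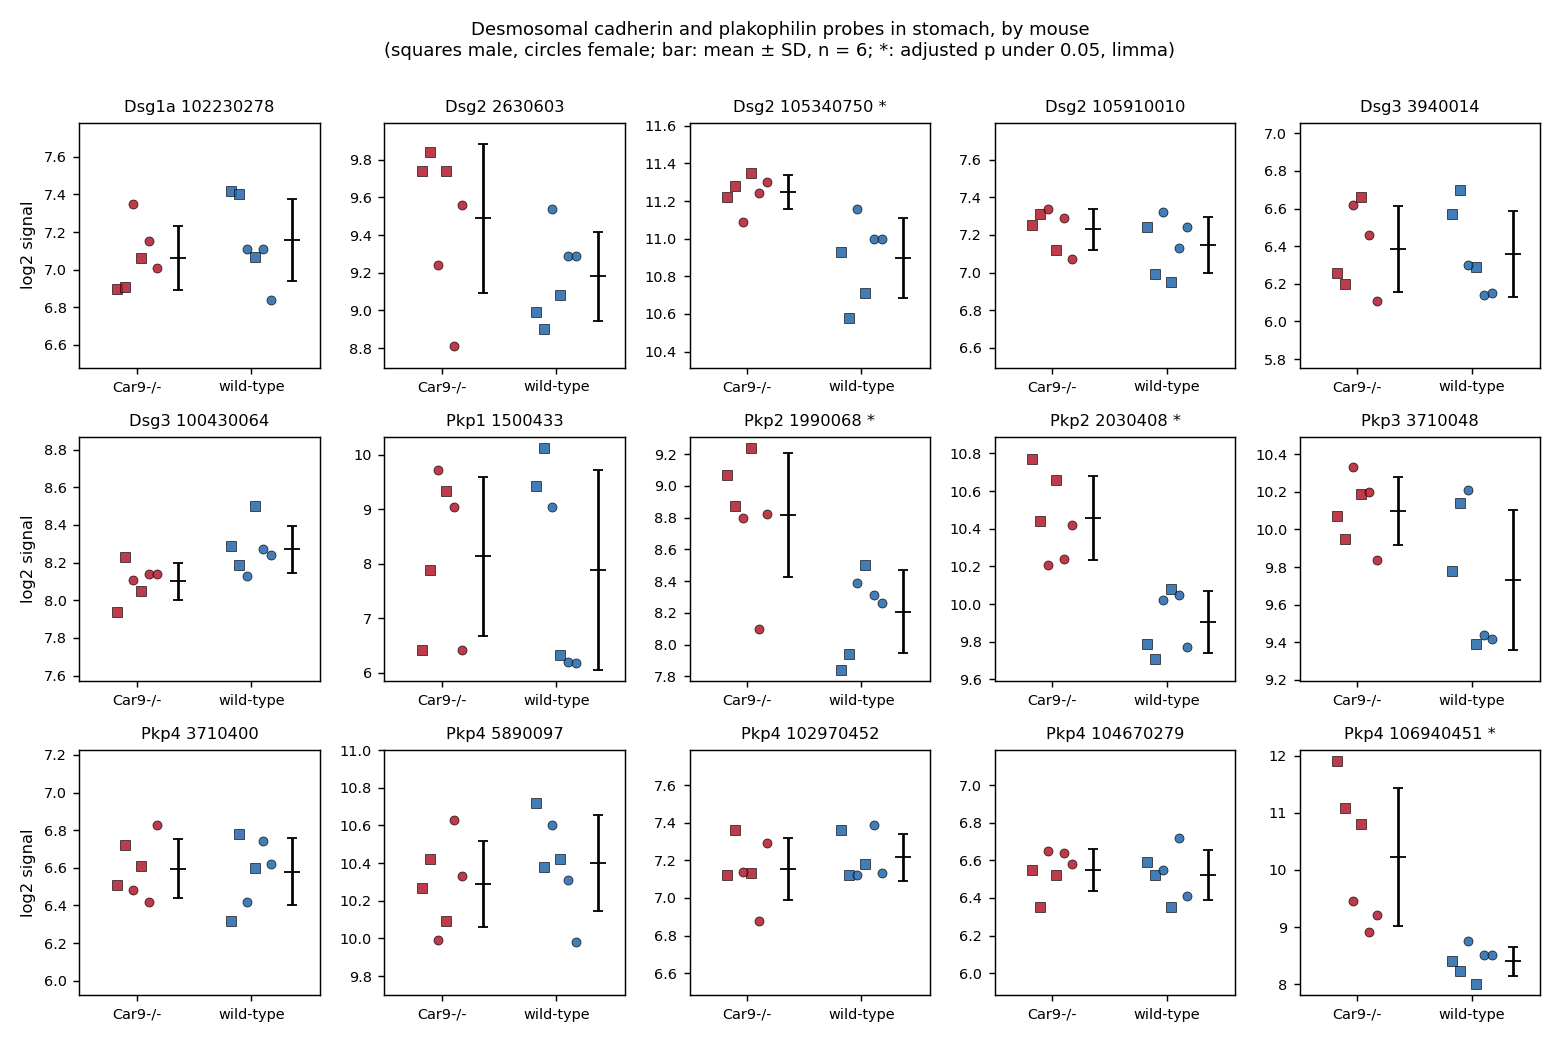
log2 signal (vertical axis, own scale in each panel) of the 15 tested probes in 6 Car9-/- mice (red, left) and 6 wild-type mice (blue, right); squares are males, circles females, the bar is mean ± SD and an asterisk marks an adjusted p under 0.05. The 2 genotypes do not overlap at Pkp2 probe 2030408 and at Pkp4 probe 106940451, while Pkp1 runs from 6.43 to 9.72 in Car9-/- mice and from 6.19 to 10.13 in wild-type mice.

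Pkp2, the main plakophilin of simple epithelia and of heart muscle, gave the steadiest increase. At probe 2030408 the lowest, median and highest Car9-/- mice had 10.21, 10.43 and 10.77, against 9.71, 9.90 and 10.08 in wild-type mice. All 6 Car9-/- mice stood above all 6 wild-type mice, and the Car9-/- males were the highest. The difference was 0.55 (SE 0.11, 95% interval 0.32 to 0.79), or 1.47-fold, with an adjusted p of 0.0102. At probe 1990068 the Car9-/- mice had 8.10, 8.84 and 9.24, against 7.84, 8.29 and 8.50 in wild-type mice. Here 5 of 6 Car9-/- mice were above every wild-type mouse, and the exception was a female. The difference was 0.61 (SE 0.17, 95% interval 0.23 to 0.99), or 1.53-fold, with an adjusted p of 0.0421. Across the 12 mice the pair of probes moved together, with a Pearson correlation of 0.89, a description in which the genotype difference is included. The call at probe 1990068 was lost when any 1 of Car9-/- mice 1, 2, 3, 4 or 6 or wild-type mice 1, 2, 5 or 6 was left out, with differences that stayed between 0.53 and 0.75 over all 12 omissions and lost adjusted p values of 0.0607 to 0.0946. The call at probe 2030408 stood at each of those 12 omissions, with differences of 0.49 to 0.60, but not without wild-type mice 4, 5 and 6 together, when the difference was 0.62 (adjusted p = 0.0528). That fit called 0 of the 15 member probes, where 0.93% of all probes were called higher and 0.925% lower.

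Dsg2 is the desmoglein that all desmosome-bearing tissues use, and its probes gave different answers. Probe 105340750 read 11.09, 11.26 and 11.35 in the lowest, median and highest Car9-/- mice, against 10.58, 10.97 and 11.16 in wild-type mice. Of the Car9-/- mice, 5 of 6 were above every wild-type mouse, and the Car9-/- values were packed closely. The difference was 0.35 (SE 0.09, 95% interval 0.15 to 0.55), or 1.28-fold, with an adjusted p of 0.0308. Probe 2630603 ran from 8.81 to 9.84 in Car9-/- mice and from 8.90 to 9.54 in wild-type mice, with a difference of 0.31 (95% interval -0.06 to 0.68, adjusted p = 0.263), which was called only without Car9-/- mouse 5 among the single omissions (0.44, adjusted p = 0.0396). Probe 105910010, designed to a cDNA entry other than a RefSeq transcript, differed by 0.09 (95% interval -0.08 to 0.26, adjusted p = 0.497). These probes correlated with each other at 0.24 to 0.67 over the 12 mice, so they did not track 1 quantity closely. The call at probe 105340750 was lost without any 1 of Car9-/- mice 1, 2, 4 or 6 or wild-type mice 1, 2 or 4, with adjusted p values of 0.0501 to 0.0738 and differences between 0.29 and 0.40 over all 12 omissions.

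Pkp3, a plakophilin found in nearly all epithelia, had 1 probe, with 9.84, 10.13 and 10.33 in the lowest, median and highest Car9-/- mice, against 9.39, 9.61 and 10.21 in wild-type mice. Wild-type mice 4, 5 and 6 had 9.39 to 9.44, below every other mouse, while wild-type mice 1 to 3 had 9.78 to 10.21 and overlapped the Car9-/- mice. The difference was 0.37 (SE 0.16, 95% interval 0.03 to 0.71) and did not pass the test after adjustment (adjusted p = 0.148). Without wild-type mice 4, 5 and 6 it was 0.05 (adjusted p = 0.847).

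The desmogleins of stratified epithelium did not pass the test. Dsg1a, which in skin serves the upper layers, was measured by a probe to a cDNA entry and differed by -0.10 (95% interval -0.33 to 0.14, adjusted p = 0.605). Dsg3, which serves the basal layers, differed by 0.02 (95% interval -0.24 to 0.29, adjusted p = 0.921) at its RefSeq probe 3940014, detected in 2 Car9-/- mice and 1 wild-type mouse. Its cDNA probe 100430064 differed by -0.17 (95% interval -0.32 to -0.02, adjusted p = 0.145). The Dsg3 probes correlated at -0.17 over the 12 mice, so they did not follow each other. In the RefSeq annotation all 9 desmoglein and desmocollin genes of the mouse lie in 1 row with 0 other protein-coding genes among them, in the order Dsc3, Dsc2, Dsc1, Dsg1c, Dsg1a, Dsg1b, Dsg4, Dsg3 and Dsg2. The near copies Dsg1a, Dsg1b and Dsg1c share sequence, and whether their probes read only 1 of them was not tested.

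**Figure D2:**
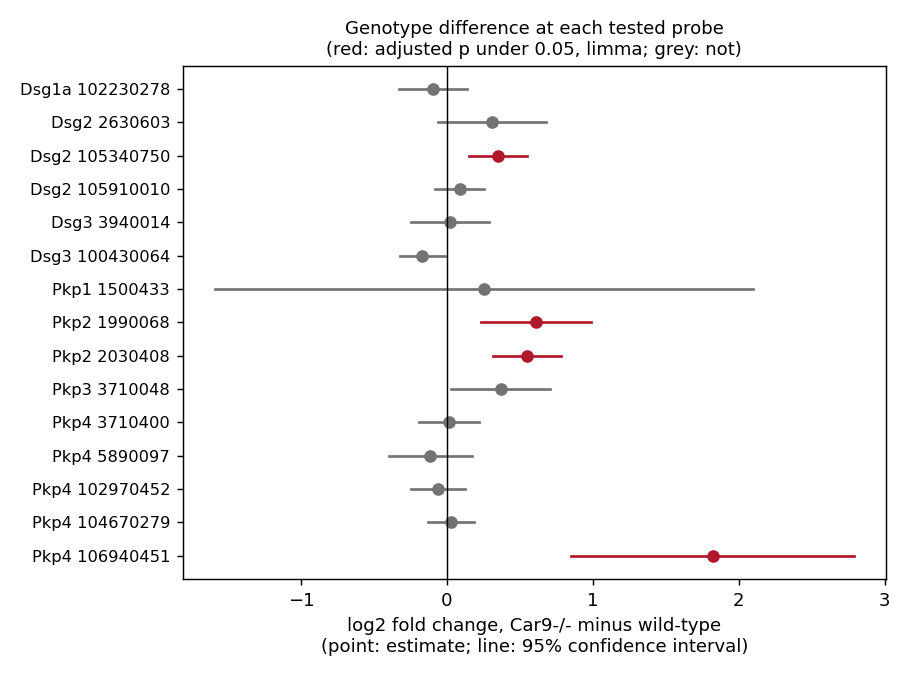
Difference in log2 signal, Car9-/- minus wild-type, at each of the 15 tested probes (points) with its 95% interval (lines), 6 mice per genotype; red marks an adjusted p under 0.05. The called probes lie at 0.35, 0.55, 0.61 and 1.82, the interval of Pkp1 runs from -1.59 to 2.09, and the 4 other Pkp4 probes lie between -0.11 and 0.03.

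Pkp4 (p0071), a plakophilin relative that sits at both adherens junctions and desmosomes, showed a split between probes. The study also measured Pkp4 by QRT-PCR on the same RNA samples and reported no change. It was the only gene checked there whose QRT-PCR and array results disagreed. The probe of the study list, 106940451, read 8.91, 10.12 and 11.90 in the lowest, median and highest Car9-/- mice, against 8.01, 8.46 and 8.75 in wild-type mice. No wild-type mouse reached the lowest Car9-/- mouse, and Car9-/- mice 1, 2 and 4, the 3 males, were far above the 3 females. The mean was 10.23 ± 1.20 in Car9-/- mice and 8.41 ± 0.26 in wild-type mice (SD, n = 6 each), a difference of 1.82 (SE 0.45, 95% interval 0.85 to 2.79), or 3.53-fold, with an adjusted p of 0.0237. The call was lost without Car9-/- mouse 2, Car9-/- mouse 4 or wild-type mouse 4 (adjusted p 0.0533 to 0.0579), with differences of 1.49 to 2.08 over all 12 omissions.

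The 4 Pkp4 probes that the annotation names did not share this pattern. Probe 5890097, detected on all 12 arrays, ran from 9.99 to 10.63 in Car9-/- mice and from 9.98 to 10.72 in wild-type mice, with a difference of -0.11 (95% interval -0.40 to 0.17). The other 3 differed by 0.01, -0.06 and 0.03, and the adjusted p values of the 4 were 0.608 to 0.939. Probes 3710400 and 104670279 were detected in 3 and 2 Car9-/- mice and in 2 and 1 wild-type mice, so their low signals leave little room to follow any pattern. The pair detected on every array, 5890097 and 102970452, correlated with probe 106940451 at -0.27 and 0.01 over the 12 mice. Within each mouse, probe 106940451 minus the mean of the 4 others gave 2.58 ± 1.22 in Car9-/- mice and 0.73 ± 0.27 in wild-type mice, a difference of 1.85. Against the pair detected on every array alone it was 1.91. These contrasts are given as a description, with no test, since the split was known when they were chosen. The plot of the 5 Pkp4 probes shows the 4 annotated ones scattered about 0.

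**Figure D3:**
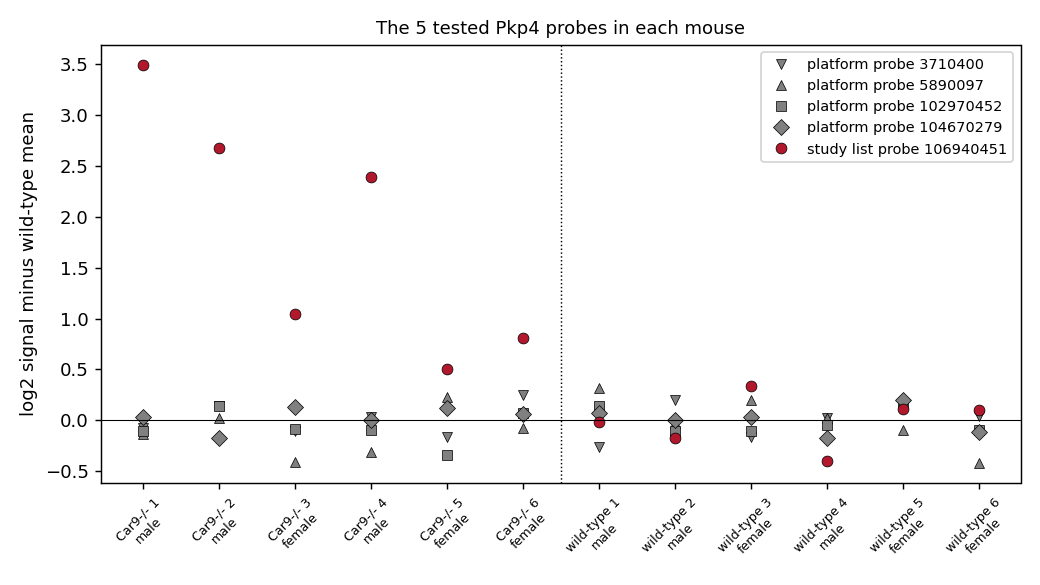
log2 signal minus the wild-type mean of the same probe (vertical axis) in each of the 12 mice, Car9-/- left and wild-type right, with the sex of each mouse below. The probe of the study list (red) is highest in Car9-/- mice 1, 2 and 4, and the 4 annotated Pkp4 probes (grey) differ between genotypes by -0.11 to 0.03.

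RefSeq gives Pkp4 a pair of transcription starts, so its transcripts can begin at different places. Both start windows are shown because probes of this gene disagreed; which start or exon each probe reads is not given in the sources used here, and the probe letters themselves are not shown. The windows (GRCm38.p6) run from 250 bases before a start to 50 after it, and capitals mark the GC box GGGCGG and the CCAAT box, each searched on both strands. The GC box letters occur in 35.7% and the CCAAT box in 37.4% of the 32851 windows in the RefSeq table. The upstream window at chr2:59160600-59160899, plus strand, holds 6 GC box and 3 CCAAT matches, of which some overlap:
Pkp4 upstream start: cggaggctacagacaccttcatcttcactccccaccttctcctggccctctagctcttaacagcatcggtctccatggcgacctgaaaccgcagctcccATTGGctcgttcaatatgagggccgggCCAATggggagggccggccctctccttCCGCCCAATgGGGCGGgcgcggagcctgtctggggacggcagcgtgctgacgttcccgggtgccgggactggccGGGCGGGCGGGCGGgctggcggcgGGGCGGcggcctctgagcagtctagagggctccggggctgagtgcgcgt
The downstream window at chr2:59161619-59161918, plus strand, holds 0 of either:
Pkp4 downstream start: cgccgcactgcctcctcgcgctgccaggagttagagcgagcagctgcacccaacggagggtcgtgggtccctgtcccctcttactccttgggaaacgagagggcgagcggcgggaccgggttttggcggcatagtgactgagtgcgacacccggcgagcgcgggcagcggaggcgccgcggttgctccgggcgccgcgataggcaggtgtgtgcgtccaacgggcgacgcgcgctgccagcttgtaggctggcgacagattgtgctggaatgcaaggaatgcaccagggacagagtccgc
A match is only a run of letters, and these windows say nothing of which start the stomach used.

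The mice also differed in the signal of stratified squamous genes. Scored by 21 genes of stratified squamous epithelium, none of them a member, 7 mice lay between 0.45 and 2.70 and 5 mice between -2.40 and -2.07. The low mice were Car9-/- mice 1 and 6 and wild-type mice 4, 5 and 6. The gap of 2.52 takes up 49.5% of the range, so the mice form separate clusters and no correlation with this score was drawn over all 12.

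Pkp1, the plakophilin of the upper layers of stratified epithelium, varied along this split. It was detected in all 7 mice above the gap, with 7.88 to 9.72 in Car9-/- mice and 9.05 to 10.13 in wild-type mice. It was detected in 0 of the 5 mice below the gap, which had 6.43 in both Car9-/- mice and 6.19 to 6.33 in wild-type mice. Between genotypes it differed by 0.25 (SE 0.85, 95% interval -1.59 to 2.09, adjusted p = 0.875), and with the squamous level as a covariate by -0.41 (adjusted p = 0.104). That interval holds differences of either sign. The genes most like Pkp1 over the 12 mice were Lce1c, Kprp and Lgals7, at Pearson correlations of 0.996, 0.995 and 0.993. All 3 are genes of stratified squamous epithelium. These correlations run across both clusters of mice, so the gap is part of them.

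Dsg3 probe 3940014 and the probes of Dsc3 and Dsp lay at the edge of detection. Dsg3 probe 3940014 was detected in 3 of the 7 mice above the gap and 0 of the 5 below, and Dsc3 and Dsp in 2 of 7 and 0 of 5 each. The genes nearest to that Dsg3 probe were Irx2, Tfap2c and Tfap2a (0.963, 0.956 and 0.954), which encode transcription factors. These correlations too run across the gap. Dsg3 probe 100430064, detected on all 12 arrays, had other nearest genes, Sv2a, Pgc and Selenom (0.927, 0.927 and 0.901). Within the 7 mice above the gap, 0 of 15 member probes followed the squamous level after adjustment over the 15 relations, and 2 had an exact permutation p under 0.05 before it. Pkp1 had r = 0.798 (exact permutation p = 0.0127, adjusted 0.19) and rho = 0.786 (exact permutation p = 0.048, adjusted 0.36), with r = 0.591 without the 2 mice farthest from the median level. Dsg3 probe 3940014 had r = 0.815 (exact permutation p = 0.0353, adjusted 0.265) and rho = 0.857 (exact permutation p = 0.0238, adjusted 0.357), with r = 0.727 without those 2 mice. Dsg3 probe 100430064 ran the other way, with r = -0.572 (exact permutation p = 0.18, adjusted 0.53) and rho = -0.536 (exact permutation p = 0.236, adjusted 0.637). Leaving out wild-type mouse 1 gave Pkp1 and Dsg3 probe 3940014 an adjusted p under 0.05, with r = 0.933 for Pkp1 (exact permutation p = 0.00139, adjusted 0.0208) and r = 0.98 for the Dsg3 probe (exact permutation p = 0.00417, adjusted 0.0312) in 6 mice. Against the basal genes alone 0 of 15 passed, with Dsg1a and Pkp1 nearest (r = 0.869 and 0.906, exact permutation, adjusted p = 0.0506 each). The probes called between genotypes ran against the basal genes, with rho of -0.893 at Dsg2, -0.857 and -0.643 at Pkp2 and -0.821 at Pkp4. The 7 mice were of both genotypes, and these correlations hold no genotype term.

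**Figure D4:**
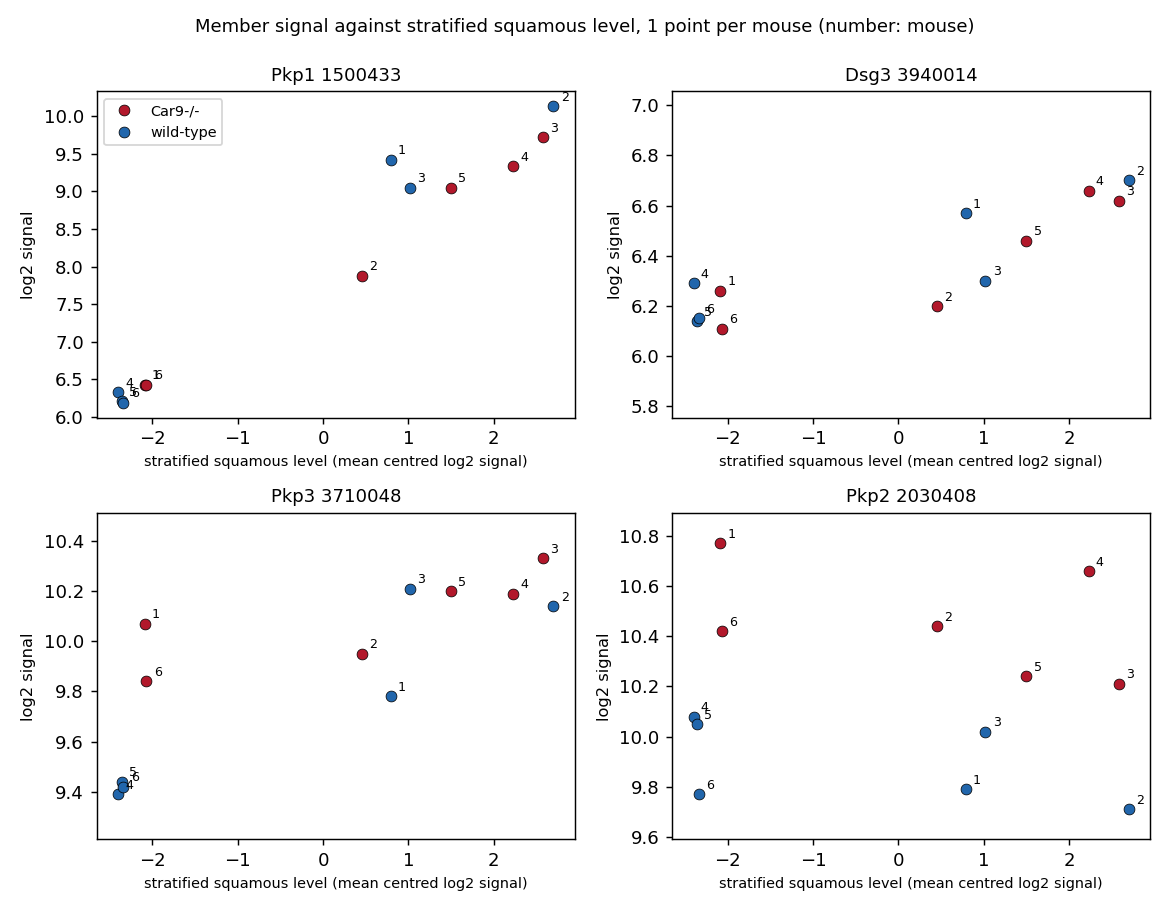
log2 signal of 4 probes (vertical axis) against the stratified squamous level (horizontal axis, mean centred log2 signal of 21 genes), 1 point per mouse, red for Car9-/- and blue for wild-type. Pkp1 lies at 6.19 to 6.43 in the 5 mice below the gap and at 7.88 to 10.13 in the 7 above it, while the genotypes do not overlap at Pkp2 probe 2030408 in any part of the range.

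Pkp3 had 9.95 to 10.33 in Car9-/- mice against 9.78 to 10.21 in wild-type mice above the gap, and 9.84 and 10.07 in Car9-/- mice against 9.39 to 9.44 in wild-type mice below it, so the genotypes overlapped above and were apart below. The genotypes did not overlap over all 12 mice at Pkp2 probe 2030408 and Pkp4 probe 106940451, which fixes that they cannot overlap on either side of the gap. The other Pkp2 probe, 1990068, overlapped above the gap, with 8.10 to 9.24 in Car9-/- mice against 7.84 to 8.39 in wild-type mice, but not below, with 8.82 to 9.07 in Car9-/- mice against 8.26 to 8.50 in wild-type mice. Dsg2 probe 105340750 overlapped above the gap, with 11.09 to 11.35 in Car9-/- mice against 10.58 to 11.16 in wild-type mice. Below the gap it did not overlap, with 11.22 to 11.30 in Car9-/- mice against 10.71 to 11.00 in wild-type mice. Only Car9-/- mice 1 and 6 and wild-type mice 4, 5 and 6 lay below. So few mice can lie apart by chance, and the share of all probes apart there was not counted. The Pkp2 and Dsg2 probes were also called over all 12 mice, so their separation below adds no support. With the squamous level as a covariate all 4 calls stood, with differences of 0.59 and 0.66 at the Pkp2 probes, 0.37 at Dsg2 and 1.88 at Pkp4 (5.08% of all probes were called higher and 5.16% lower in that fit, 0 members lower). Fitted within the 7 or within the 5 mice alone, 0 of 15 were called, where 0.106% and 0.0337% of all probes were called higher and, in the 7 mice, 0.053% lower.

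The exocrine pancreas level bore on the same calls. With it as a covariate the differences were 0.53 and 0.70 at Pkp2, 0.28 at Dsg2 and 1.42 at Pkp4, all still positive, and none was called (adjusted p 0.156 to 0.336). Since this level does not overlap between genotypes, the level and the genotype cannot be fully told apart, and over all probes that fit called 23, against 2197 without it. For adipose tissue, 0 of 3 genes were called, with a level of -1.13 to -0.08 in Car9-/- mice and -1.33 to 2.84 in wild-type mice. Of 6 markers of gastric pit cells, the surface mucous cells, 2 were higher (Muc1 and Muc5ac) and 0 lower. The list as a whole was mixed, with a median difference of -0.01, and the other tested Muc5ac probes ran from -0.10 to 0.88 with 0 called. Its mean centred level was -0.04 to 0.11 in Car9-/- mice and -0.16 to 0.03 in wild-type mice, with all 6 genes detected on every array. Dsg2 probe 105340750 had S100a6 and Muc5ac among its 3 nearest genes (0.952 and 0.951), correlations in which the genotype difference is included. A part of pit cell number in the difference at this Dsg2 probe was not tested. For chief cells, the makers of pepsinogen, 2 of 5 genes (Rab26 and Bhlha15) were lower and 0 higher, and 4 were detected on every array. The other tested Rab26 probe differed by -0.28 and was not called. The other tested Bhlha15 probes differed by -1.23 to -0.08, with 1 called.

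The sexes were compared by the genotype-by-sex term. It called 0 of 15 member probes (limma), where 0.0145% of all probes were called, although 6 of the 15 had an unadjusted p under 0.05, against 9.25% of all probes. Those 6 probes were the 2 of Pkp2, 2 of Dsg2, the Dsg1a cDNA probe and Pkp4 probe 106940451, so they represent 4 genes. That Pkp4 probe came from the study list, which was filtered by the spread of each probe over these same arrays. Its place among the 6 therefore adds no support. At Pkp4 probe 106940451 the males read 10.80 to 11.90 in Car9-/- mice and 8.01 to 8.40 in wild-type mice, and the females 8.91 to 9.45 in Car9-/- mice and 8.51 to 8.75 in wild-type mice. The differences were 3.04 in males and 0.60 in females, with an interaction, female minus male, of -2.44 (adjusted p = 0.0649). Dsg2 probe 2630603 differed by 0.78 in males and -0.17 in females, an interaction of -0.95 (adjusted p = 0.208). Pkp2 leaned the same way, with 0.76 in males and 0.34 in females at probe 2030408 (interaction -0.42, adjusted p = 0.511). Dsg1a probe 102230278 went the other way, with -0.34 in males and 0.15 in females (interaction 0.49, adjusted p = 0.432).

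The 3 male Car9-/- mice that were highest at Pkp4 probe 106940451 were also the lowest of all 12 in the chief cell level, with -1.42, -0.80 and -0.89, against 0.05 to 0.20 in Car9-/- females and 0.13 to 0.77 in wild-type mice. They were likewise the lowest in the exocrine pancreas level, at -1.61, -1.28 and -1.85. The part of either cell type in this probe was not tested. The genes whose pattern was most like that of probe 106940451 over the 12 mice were H2aj, Mcm6 and Set, at correlations of 0.965, 0.956 and 0.955. The genotype difference is included in these correlations. The genes encode a histone variant, a subunit of the DNA replication helicase and a histone chaperone.

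Partners of the members were read at the brightest tested probe of each gene. Of 9 tested genes of the wider desmosome and plakin group, 0 were called in either direction, and all but Jup, Ppl and Evpl were missed on some array. Jup (plakoglobin), the plaque partner of the desmosomal cadherins, averaged 11.99 ± 0.19 in Car9-/- mice and 11.74 ± 0.32 in wild-type mice (SD, n = 6 each), a difference of 0.25 (adjusted p = 0.275). The other tested Jup probe differed by 0. Evpl and Kazn differed by 0.34 (adjusted p = 0.639) and 0.11 (adjusted p = 0.438), and Dsg4 by -0.07 (adjusted p = 0.54). The median over the 9 genes was 0.25. Among 11 adherens junction and p120 catenin genes, 2 were higher and 0 lower at the brightest probe. These were Nectin3 (0.47, adjusted p = 0.0103) and Nectin2 (0.46, adjusted p = 0.0374, with 0.15 at its other tested probe and no call there), cell adhesion molecules of the immunoglobulin family, while Ctnnd1 (p120) and Afdn (afadin) each differed by 0.21 (adjusted p = 0.151 and 0.192). Cdh1 (E-cadherin), named here after its values were seen, differed by 0.21 (adjusted p = 0.207) at its brightest probe and by 0.43 at the other, which was called.

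Among 8 hemidesmosome genes, which anchor epithelium to the basement membrane, 1 was higher and 0 lower. It was Itga6, the integrin alpha chain of that anchor, with 0.45 (adjusted p = 0.0105), and its 3 other tested probes differed by 0.31 to 0.52, with 1 of them called. Its partner Itgb4 differed by 0.60 (adjusted p = 0.0533), against 0.03 at its other probe, and Plec, the plakin there, by 0.41 (adjusted p = 0.0534), against -0.11 to 0.09 at its other probes. Lama3 went the other way, at -0.10 (adjusted p = 0.446). The list was mixed, with a median difference of 0.05 over the 8 genes. Of the keratins of simple epithelium, to which desmosomes attach in glandular cells, 1 of 4 was higher: Krt19, with 0.97 (adjusted p = 0.0104). Krt8 differed by 0.38 (adjusted p = 0.0691). Of 11 keratins of stratified epithelium 0 were called. Their mean centred level was -2.34 to -2.22 in the same 5 mice that were low in squamous genes. Krt5, Krt14, Krt15, Krt4, Krt13, Krt1 and Krt10 are also among those squamous genes, so this agreement was largely fixed in advance.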

How the data were processed

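The intensity values that the authors deposited are BeadStudio output per bead type, neither normalized nor corrected for background, with a detection p-value per probe and array. They also deposited log2 values quantile-normalized in Chipster, which were used as an alternative. Here the raw intensities were put on a common distribution by quantile normalization and converted to log2. The 20751 probes that 3 or more of the 12 arrays detected at p under 0.01 entered the genotype fit with limma 3.58.1 in R 4.3.3 (lmFit, eBayes), and p values were adjusted by Benjamini-Hochberg over all of them; the script was first tested on simulated data. Plots were made in Python 3.11.15 (matplotlib 3.10.9). All 10 members were named with every probe, and up to 4 genes per list with the highest absolute statistic. The 3 named genes most correlated with each tested probe were found, and are given above for only some of the probes. The members, lists and tests were chosen with earlier results of these data known. The fits without wild-type mice 4, 5 and 6, those within the mice on either side of the squamous gap, and the restriction to the Pkp4 probes detected on all arrays were chosen after seeing the data. The signals of the 5 untested probes are bounded by array background. The replicates are separate mice, and the precision is limited by their number. Replicate numbers were not treated as pairs in the fit reported. Promoter windows came from RefSeq, where 2 of 10 members matched. The files name no genome build for the probes.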

Additional observations from a re-analysis of the deposited data

Results flagged for a closer look

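In wild-type mouse 2, Dsc3 probe 6840576 read 6.74, and the next highest wild-type mouse read 6.17, so this mouse stood apart from its group. It was the mouse with the highest squamous level, 2.70. In Car9-/- mouse 5, Dsp probe 103800148 read 6.05, and the next lowest Car9-/- mouse read 6.43. Both probes were detected on 1 Car9-/- and 1 wild-type array and were not tested. These were 2 of 40 groups checked, and chance alone marks about 1 in 20.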

How the results depend on the processing

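Over 28 alternatives each, the 4 called probes kept a positive difference: 0.49 to 0.80 and 0.53 to 0.81 at Pkp2, 0.28 to 0.61 at Dsg2 and 1.42 to 2.21 at Pkp4. No called difference changed sign. The calls were less steady. Sex as covariate, sex with age, and testing all probes each left 3 members, as Pkp2 probe 1990068 then had an adjusted p of 0.0501, 0.0513 and 0.0684. Against 4 members and 2197 probes called, the exocrine pancreas level as covariate left 0 and 23, the adipose level 2 and 948, omission of wild-type mice 4 and 6 left 1 and 963, omission of wild-type mice 4, 5 and 6 left 0 and 385, the 7 mice above the gap 0 and 33, and the 5 below 0 and 8. Array weights called 3804 probes and 5 members, and median scaling 4011 and 6, with a shift of 0.113 in the median of all probes and 89.4% of calls higher (50.4% in the fit reported); Pkp3 (0.60, adjusted p = 0.0376) and Dsg2 probe 2630603 (0.54, adjusted p = 0.0446) were then called too. Leaving out 1 mouse at a time gave 1 to 5 members and 1204 to 3360 probes; the Pkp4 contrast stayed at 1.51 to 2.12, and 0 to 2 members followed the squamous level. With the replicate number as a block, 0 members and 461 probes were called. Mice of the same number were of the same sex in both genotypes. Of 6 correlations of same-numbered deviations 1 was above 0.1, which cannot settle whether the numbers mark pairs. The cause of these changes was not tested. Arrays give no read depth, and Dsc2, Dsc3 and Dsp were at array background.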
